A study of Mus musculus with 89 samples.

Results

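The Myc family genes examined here are Myc, Mycn and Mycl, which encode the transcription factors c-Myc, N-Myc and L-Myc, together with Max, which encodes their shared dimerisation partner. They were taken by gene symbol from RNA-seq of mouse embryonic stem cells (ESCs), and are 4 of the 54146 genes in the tables. The study asked what the orphan nuclear receptors Esrrb and Nr5a2 contribute to ESCs, and measured poly-A RNA by stranded paired-end sequencing in 20 libraries. All libraries came from EKOiE ESCs, which lack a working endogenous Esrrb gene and express an Esrrb transgene for as long as doxycycline (Dox) is given, so every group, the controls included, carries that knockout and depends on the transgene for Esrrb.

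The groups combined 4 states with 2 media. In +E+N, EKOiE cells were kept with Dox at 1 µg/ml. In −E, Dox was withdrawn from EKOiE cells for 2 days. In −N, EKOiE NrKO cells were kept with Dox. These carry, on both alleles of Nr5a2, a disrupted exon where the sequence for DNA binding begins. In −E−N, Dox was withdrawn from EKOiE NrKO cells for 2 days. Each state was cultured in FCS/LIF, which is serum with the cytokine LIF (n = 2 libraries per state), or in 2i/LIF, which is LIF with an inhibitor of MEK and an inhibitor of GSK3 (n = 3 per state). EKOiE NrKO cells were expanded from sorted single cells. The supplement describes RNA-seq reads of clone 4, and the labels name no clone, so loss of Nr5a2 and descent from a clone cannot be told apart, and nor can medium and the set of cultures. The study's legends call the replicates independent experiments, while the labels give only their numbers.

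Myc, Mycn and Mycl are basic helix-loop-helix leucine zipper (bHLH-zipper) proteins that bind DNA as dimers with Max, mostly at E-box sequences, and are best known for raising the expression of genes for ribosome production, nucleotide synthesis and cell cycle entry. Max also pairs with Mxd1, Mxi1, Mxd3, Mxd4, Mnt and Mga, which oppose Myc at the same sequences, while Mlx pairs with the nutrient-responsive factors Mlxip and Mlxipl. In ESCs, LIF signalling through Stat3 raises Myc transcription, while ERK (downstream of MEK) and GSK3 phosphorylate the Myc and N-Myc proteins and so set their stability. RNA levels carry no information on the protein step.

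In the GENCODE vM21 annotation of mm10, Myc lies on chromosome 15 at 61985391–61990374 on the plus strand and Mycl on chromosome 4 at 122995652–123002485 on the plus strand. Mycn lies at 12936093–12941914 and Max at 76937269–76962201, both on the minus strand of chromosome 12. The Max interval holds the unconfirmed transcript Gm47218 on the same strand. RefSeq (GRCm38.p6) gave windows from 250 bases before to 50 bases after the start site for Mycl, Mycn and Max. No window was available for Myc, so its promoter was not searched. The E-box word CACGTG, searched on both strands, was present in the Max window and in neither of the other two. It occurred in 2349 of all 32851 windows (7.15%). The stretch of the Max window around it is shown because it is the only match, among the members with a window, to the word that Myc and Max proteins bind. It lies at chr12:76962234-76962263, outside the GENCODE interval of Max, so the RefSeq and GENCODE start sites differ. The stretch is read along the minus strand and has the E-box, which begins 3 bases before the RefSeq start site, in capitals.
Max: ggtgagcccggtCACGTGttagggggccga
TCAAGGTCA, a form of the Esrrb sequence, was in 0.423% of all windows and TCAAGGCCA, a form of the Nr5a2 sequence, in 0.591%, and neither was in a window of a member. These matches describe letters in short windows only.

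Depth ran from 36514172 to 45443379 counts per library in FCS/LIF (median 41205657) and from 26653035 to 32526534 in 2i/LIF (median 28675445). Levels are given as CPM (counts scaled to library size by TMM) where a gene is compared between groups, and as TPM (scaled also to transcript length) where genes are compared with each other. A gene was called where edgeR's quasi-likelihood test gave an adjusted p below 0.01 and a fold above 1.5. Interaction terms and differences between the responses in the 2 media needed the adjusted p only. All 4 members passed the filter on low counts in both media. Esrrb fell in FCS/LIF from 271–353 CPM with both factors present to 65.1–74.2 upon −E and 28.9–31.3 upon −E−N, and from 515–609 to 380–441 and 104–171 in 2i/LIF. Reads of the transgene and of the disrupted endogenous gene share the Esrrb symbol, and a count over the whole Nr5a2 gene does not see a deleted exon, so the −N label was not checked by these counts. Nr5a2 RNA was also lower in −E, whose cells carry no Nr5a2 disruption. It went from 36.1–39.9 CPM in +E+N to 19.2–19.7 in FCS/LIF, and from 61.8–80.2 to 42.3–52.2 in 2i/LIF. The −E state is thus not a loss of Esrrb with Nr5a2 RNA unchanged.

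The medium went with the largest differences of Myc and Mycn. Mycl changed more in −N within 2i/LIF (log2 −1.38) than between media in +E+N (1.26). In +E+N cells, Myc and Mycn were lower in 2i/LIF than in FCS/LIF by 8.0-fold and 6.10-fold, Mycl was 2.40-fold higher, and Max differed by a log2 change of −0.08 ± 0.07 (SE, adjusted p = 0.354). Among all 16147 genes tested, 17.2% were called higher and 17.5% lower in this comparison, beside 3 of 4 members. In bulk RNA, fewer cells that express a gene and less RNA per cell cannot be told apart, here and in each result that follows.

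Mycn was the most abundant of the 3 Myc genes in every group. Its level in FCS/LIF was 321 and 321 CPM with both factors present, 348 and 338 upon −E, 325 and 317 upon −N, and 212 and 195 upon −E−N. The libraries of −E−N lay below all 6 others in that medium, and −E lay above the rest. Loss of both factors lowered Mycn by a log2 change of −0.68 ± 0.05 (adjusted p = 2.79e-05), which is 1.60-fold, whereas −E (0.08 ± 0.05, adjusted p = 0.364) and −N (−0.02 ± 0.05, adjusted p = 0.911) were not called. Against −N the drop was −0.66 ± 0.05 (adjusted p = 6.97e-05), and against −E it was −0.75 ± 0.05 (adjusted p = 0.000187). The call against −N was lost by limma on log2(TPM + 1) and log2(TPM + 0.1) (−0.57 and −0.58, under the fold limit), and with all 20 libraries in 1 fit both calls were lost (adjusted p = 0.0255 and 0.0207).

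The drop of Mycn in −E−N held in 8 of 8 fits with a library left out. It was not called when all 20 libraries were fitted together (−0.66, adjusted p = 0.0146), nor by limma on log2(TPM + 1), where its value of −0.52 missed the fold limit. The departure from additivity, that is the −E−N change less the sum of the −E and −N changes, was −0.73 ± 0.08 for Mycn but did not pass by edgeR (adjusted p = 0.0126). Under this interaction test, 0 of 4 members were called by edgeR, 1 had an unadjusted p under 0.05 and DESeq2 called 1, Mycn (adjusted p = 3.54e-10). Over the alternatives with all libraries, the adjusted p of this term ran from 2.18e-11 to 1. Among all genes 0.032% were called for this term.

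In 2i/LIF, Mycn was 52.9, 59.6 and 45.4 CPM with both factors present, 51.6, 55.1 and 44.96 upon −E, 90.7, 102 and 71.4 upon −N, and 95.5, 98.5 and 57.3 upon −E−N. The libraries of −N lay above all 6 of +E+N and −E, and those of −E−N overlapped the upper end of +E+N. The fitted changes were 0.74 ± 0.19 in −N (adjusted p = 0.0250) and 0.68 ± 0.19 in −E−N (adjusted p = 0.0112). Neither passed in this edgeR fit of the 2i/LIF libraries, which ignored replicate numbers. With those numbers as a block both were called by edgeR, at 0.73 (adjusted p = 7.59e-05) and 0.66 (adjusted p = 3.21e-05). Between −N and +E+N the deviations of same-numbered libraries from their group means correlated above 0.1 in 3 of 3 pairs, and between −E−N and +E+N in 2 of 3. Replicate 3 was the lowest in Mycn in each of the 4 states. DESeq2 without the block called both at values of 0.74 and 0.68. So did edgeR with all 20 libraries in 1 fit (0.74 and 0.67) and with genes of at least 1 count kept (0.75 and 0.68). Without replicate 3 of −E−N both changes were also called by edgeR, at 0.74 (adjusted p = 0.00426) and 0.89 (adjusted p = 0.000551). Without replicate 3 of −N the −E−N change was called as well (0.68, adjusted p = 0.00907).

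Against −E in the same medium, −E−N was higher in Mycn by 0.74 ± 0.19 (adjusted p = 0.00963), a call that remained in 2 of 12 fits with a library left out, those without replicate 3 of −N or of −E−N, with adjusted p up to 0.0458 in the others. With all libraries it remained in 5 of 10 alternatives, the replicate block among them (0.71, adjusted p = 2.65e-05), with adjusted p up to 0.0206 in the rest. The response of Mycn to loss of both factors therefore differed between media. The change in FCS/LIF less that in 2i/LIF was −1.33 ± 0.25 (adjusted p = 0.00115). For −N alone the difference was −0.74 ± 0.25 (adjusted p = 0.140) and for −E it was 0.15 ± 0.25 (adjusted p = 0.823).

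**Figure D1:**
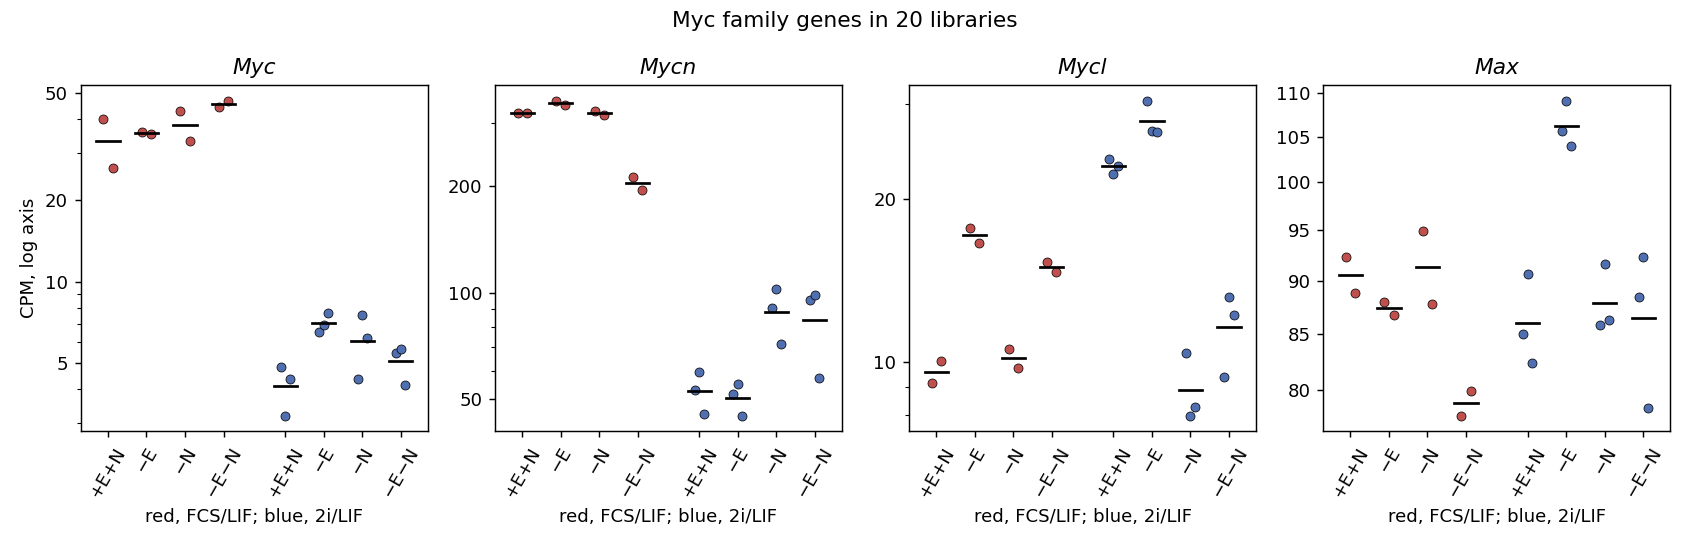
TMM-scaled CPM of Myc, Mycn, Mycl and Max in each of the 20 libraries on a log axis, by state and medium, with points for libraries and lines for group means. Mycn is at 195–348 CPM in FCS/LIF and 44.96–102 in 2i/LIF, Myc is low throughout 2i/LIF, and Mycl is lowest in 2i/LIF in −N and −E−N.

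Mycl, the least expressed of the 3 Myc genes in FCS/LIF, moved in opposite directions in the 2 media upon loss of both factors. In FCS/LIF it stood at 9.15 and 10.0 CPM with both factors present, 17.7 and 16.6 upon −E, 10.6 and 9.78 upon −N, and 15.3 and 14.7 upon −E−N. Both states without Esrrb lay above both states with it. The rise was 1.76-fold in −E (log2 0.82 ± 0.10, adjusted p = 0.000827) and 1.54-fold in −E−N (0.62 ± 0.10, adjusted p = 0.0011), while −N gave 0.06 ± 0.10 (adjusted p = 0.817). The call in −E was lost without replicate 1 of −E (0.79, adjusted p = 0.0109), and that in −E−N without replicate 1 of +E+N (0.55, under the fold limit) or replicate 1 of −E−N (0.58, adjusted p = 0.0108). Against −N, −E−N was 1.47-fold higher, short of the fold limit (adjusted p = 0.00349), and against −E it differed by −0.20 ± 0.10 (adjusted p = 0.184).

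In 2i/LIF, Mycl was 23.7, 22.3 and 23.0 CPM with both factors present, 30.4, 26.8 and 26.6 upon −E, 10.4, 7.98 and 8.28 upon −N, and 9.40, 13.2 and 12.2 upon −E−N. All 6 libraries from EKOiE NrKO cells lay below all 6 from EKOiE cells. Mycl fell by 1.38 on the log2 scale in −N (SE 0.14, adjusted p = 6.77e-05), or 2.60-fold, and by 0.97 in −E−N (SE 0.13, adjusted p = 0.00011), or 1.96-fold. It was not called in −E (0.28 ± 0.13, adjusted p = 0.247), nor between −E−N and −N (0.40 ± 0.14, adjusted p = 0.0584). Against −E, −E−N was lower by a log2 change of −1.26 ± 0.13 (adjusted p = 2.98e-05). These calls remained in each fit with a library left out.

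The responses of Mycl differed between media for −N, by 1.46 ± 0.19 (FCS/LIF less 2i/LIF, adjusted p = 0.0005), and for −E−N, by 1.63 ± 0.19 (adjusted p = 1.52e-05). For −E the difference was 0.56 ± 0.19 (adjusted p = 0.115). In 2i/LIF the lower Mycl went with the EKOiE NrKO line, present in −N and −E−N alike, and whether the clone plays a part was not tested.

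Myc itself showed no called change between states in either medium in the fits that kept all libraries. In FCS/LIF its CPM was 40.0 and 26.3 with both factors present, 35.7 and 35.1 upon −E, 42.7 and 33.2 upon −N, and 44.4 and 46.7 upon −E−N. The highest libraries were those of −E−N, and the 2 libraries of +E+N held the lowest value and a value above both of −E. The change in −E−N was 0.44 ± 0.18 (adjusted p = 0.0666). With each library left out in turn this change ran from 0.17 to 0.77. The highest value was that without replicate 1 of +E+N, a fit with 1 library in +E+N, so the result depends on that library.

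In 2i/LIF, Myc was 4.82, 3.20 and 4.35 CPM with both factors present, 6.54, 6.91 and 7.65 upon −E, 4.36, 7.53 and 6.18 upon −N, and 5.46, 5.65 and 4.16 upon −E−N, resting on 86 to 221 counts per library. The 3 libraries of −E lay above those of +E+N and −E−N. The change in −E was 0.77 ± 0.22 and did not pass (adjusted p = 0.0602), nor did those in −N (0.54 ± 0.22, adjusted p = 0.147) and −E−N (0.32 ± 0.22, adjusted p = 0.276). The departure from additivity of −0.99 ± 0.31 also missed the limit (adjusted p = 0.160).

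Max varied least in CPM over the 8 groups. Its CPM in FCS/LIF was 92.3 and 88.8 with both factors present, 88.0 and 86.7 upon −E, 94.9 and 87.7 upon −N, and 77.9 and 79.9 upon −E−N. The −E−N libraries lay below the 6 others, with a log2 change of −0.22 ± 0.06 that was not called (adjusted p = 0.0143). In 2i/LIF it was 84.9, 90.6 and 82.4 CPM with both factors present, 106, 109 and 104 upon −E, 85.8, 91.6 and 86.3 upon −N, and 88.4, 92.3 and 78.5 upon −E−N. The 3 −E libraries lay above the 9 others, by 0.31 ± 0.07 against +E+N (adjusted p = 0.0180, not called). Between −E−N and −E the change was −0.29 ± 0.07 (adjusted p = 0.00604), or 1.22-fold, under the fold limit.

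**Figure D2:**
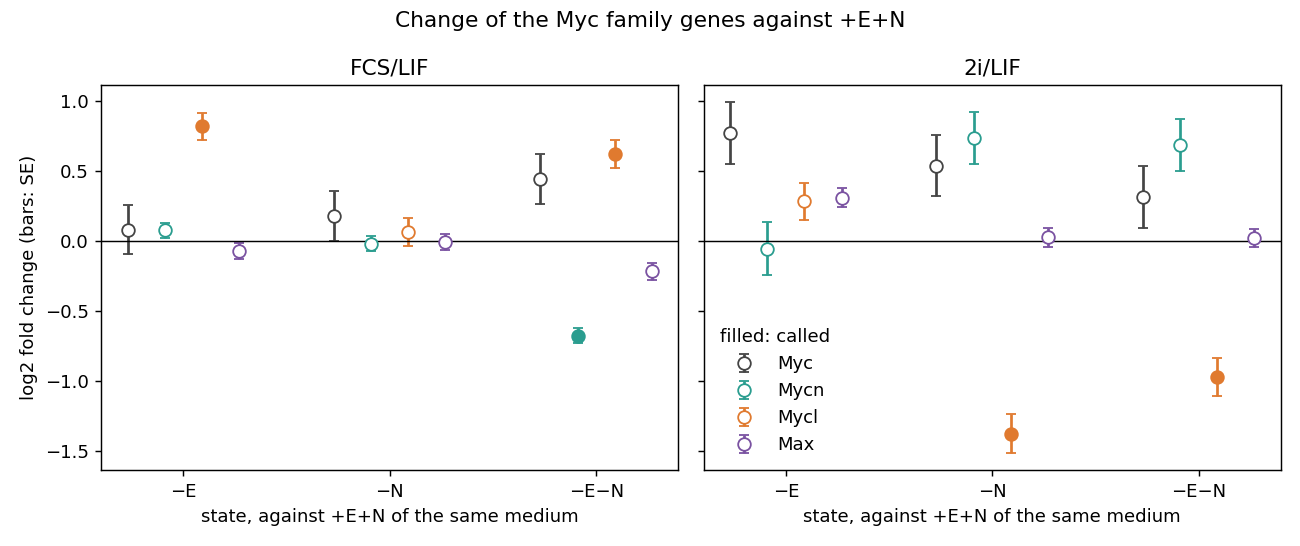
Log2 fold change with its standard error (edgeR) of the 4 members for −E, −N and −E−N against +E+N in each medium, with filled points for called changes. Called changes are those of Mycl in −E (0.82) and of Mycn (−0.68) and Mycl (0.62) in −E−N in FCS/LIF, and of Mycl in −N (−1.38) and −E−N (−0.97) in 2i/LIF.

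The members' counts can be set against genes in general. In FCS/LIF, 1 of 4 members was called in −E, where 3.23% of 15636 genes were called higher and 2.53% lower. In −N, 0 of 4 were called by edgeR, none had an unadjusted p under 0.05 and DESeq2 called 0, with 0.0767% of genes higher and 0.0959% lower. In −E−N, 2 of 4 were called, 1 each way, with 12.4% higher and 6.4% lower. Against −N, −E−N had 1 of 4 called (10.1% of genes), and against −E also 1 of 4 (5.05%).

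In 2i/LIF, 0 of 4 members were called by edgeR in −E, with 2 at an unadjusted p under 0.05 and 0 called by DESeq2, while 0.439% of 14355 genes were called higher and 1.11% lower. The replicate block left the members' count at 0 there and took calls over all genes from 223 to 596. In −N, 1 of 4 was called lower (1.61% of genes higher, 2.04% lower), and with the replicate block 2 of 4, when calls over all genes went from 524 to 1115. In −E−N 1 of 4 was called lower (9.06% higher, 9.56% lower). Between −E−N and −N, 0 of 4 were called by edgeR, 1 had an unadjusted p under 0.05 and DESeq2 called 0 (6.76% of genes). With the replicate block it was again 0 of 4, and calls over all genes went from 970 to 1622. Between −E−N and −E, 2 of 4 were called (13.1%). For the interaction in 2i/LIF, 0 of 4 were called by edgeR, 2 had an unadjusted p under 0.05 and DESeq2 called 0 (0.307%). For the difference of responses between media, 0 of 4 were called by edgeR for −E, with 3 at an unadjusted p under 0.05 and 0 by DESeq2 (1.06%), 1 of 4 for −N (0.743%) and 2 of 4 for −E−N (13.2%). With only 4 members these counts are coarse, and in −E−N and between media they stand beside backgrounds in which many genes were called.

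Ordered by mean CPM over the 8 groups, Myc ran from +E+N in 2i/LIF (4.12) through −E−N, −N and −E in that medium (5.09, 6.02 and 7.03) to +E+N, −E, −N and −E−N in FCS/LIF (33.1, 35.4, 37.9 and 45.6). Neighbours overlapped in their libraries except at the step between media and below −E−N in FCS/LIF. Mycn ran from −E and +E+N (50.5 and 52.6) to −E−N and −N (83.8 and 88.0) in 2i/LIF, with each neighbour overlapping the next, and then, apart, to −E−N (203), +E+N and −N (both 321, overlapping) and −E (343) in FCS/LIF.

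Mycl mixed the media. The lowest were −N in 2i/LIF (8.89), +E+N in FCS/LIF (9.60), −N in FCS/LIF (10.2) and −E−N in 2i/LIF (11.6), each overlapping the next, followed by −E−N (14.98) and −E (17.2) in FCS/LIF and by +E+N (23.0) and −E (27.9) in 2i/LIF, all apart from their neighbours. Max spanned 78.9 CPM in −E−N in FCS/LIF to 106 in −E in 2i/LIF. The latter lay apart from all other groups, the former overlapped −E−N in 2i/LIF through that group's lowest library (78.5), and the 6 groups between them had means of 86.0 to 91.3, each overlapping the next.

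On the TPM scale, which allows genes to be compared, the 3 Myc genes summed in FCS/LIF to 186 ± 1.47 TPM with both factors present, 214 ± 4.07 upon −E, 195 ± 1.51 upon −N and 150 ± 8.18 upon −E−N (SD, n = 2). In 2i/LIF the sums were 35.9 ± 2.30, 37.7 ± 3.39, 48.1 ± 7.62 and 48.1 ± 11.6 (SD, n = 3). Mycn supplied most of this RNA in all 8 groups.

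The share of Mycn in FCS/LIF was 87.1% ± 2.36 with both factors present, 86.2% ± 0.0712 upon −E, 86.1% ± 1.66 upon −N and 74.9% ± 2.33 upon −E−N. In −E−N it was lower by 12.2 percentage points (difference −12.2 ± 2.34 SE) and the libraries did not overlap those of +E+N, with the remainder going to Myc (10.9% to 20.7%) and Mycl (1.97% to 4.41%). The exact two-sided permutation test gave p = 0.33, the smallest that 2 against 2 libraries allow.

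In 2i/LIF the share of Mycn was 69.2% ± 4.38 with both factors present, 62.1% ± 2.43 upon −E, 85.8% ± 1.54 upon −N and 83.3% ± 4.17 upon −E−N. The differences from +E+N were −7.11 ± 2.89, 16.6 ± 2.68 and 14.1 ± 3.49 percentage points, each between groups whose libraries did not overlap and each with an exact two-sided permutation p of 0.1, the smallest that 3 against 3 allow. Mycl held 23.7% ± 2.18 with both factors present and 26.9% ± 1.95 upon −E, but 6.76% ± 1.29 upon −N and 10.3% ± 3.73 upon −E−N. With Mycl left out of the sum, the difference for Mycn shrank to 1.37 points in −N and 2.22 in −E−N.

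**Figure D3:**
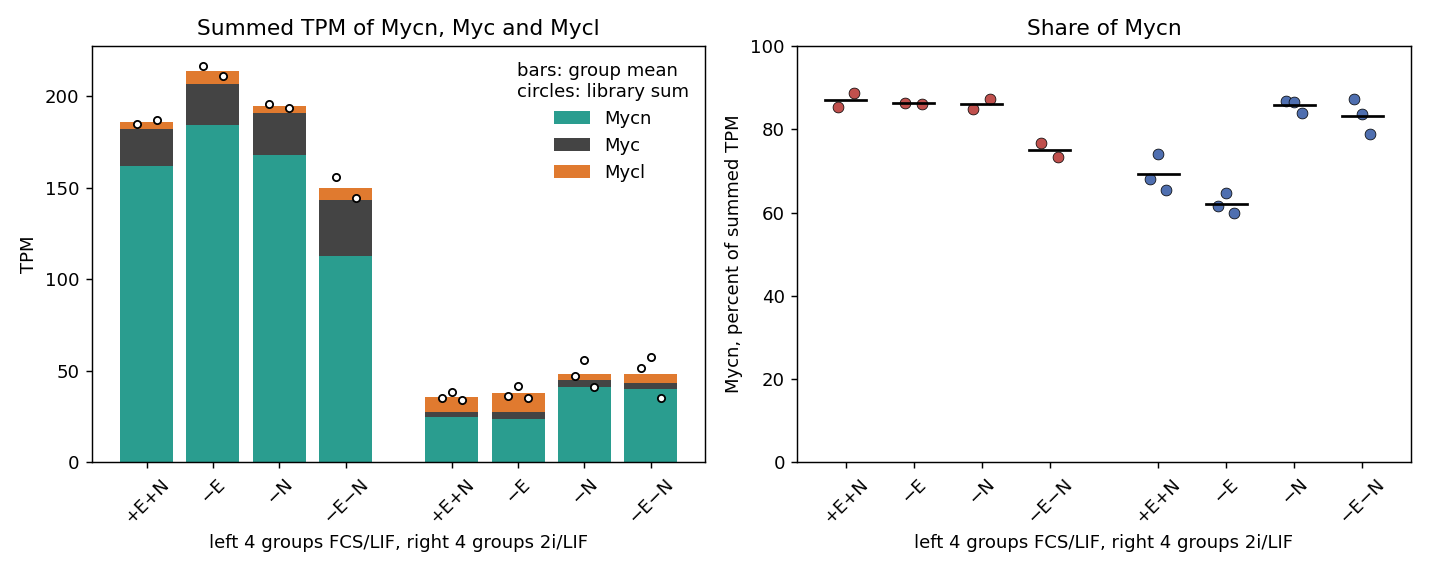
Left, summed TPM of Mycn, Myc and Mycl as stacked group means with a circle for each library's sum, and right, the share of the sum from Mycn in per cent, with points for libraries and lines for group means (n = 2 in FCS/LIF, n = 3 in 2i/LIF). The mean share of Mycn is 74.9–87.1% in FCS/LIF and 62.1–85.8% in 2i/LIF, with −E−N lowest in the first medium and +E+N and −E lowest in the second.

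Relative to its partner, the summed Myc genes stood at 2.89 ± 0.00602 times the TPM of Max with both factors present, 3.23 ± 0.0601 upon −E, 2.57 ± 0.452 upon −N and 2.43 ± 0.156 upon −E−N in FCS/LIF. In 2i/LIF the ratio was 0.572 ± 0.0525, 0.498 ± 0.0395, 0.641 ± 0.195 and 0.785 ± 0.142. Max RNA was thus below the sum of its Myc partners in FCS/LIF and above it in 2i/LIF in every group. Between +E+N and −E−N the ratio differed by −0.458 ± 0.110 in FCS/LIF (exact permutation p = 0.33) and 0.214 ± 0.0871 in 2i/LIF (exact permutation p = 0.1).

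The TPM of Max needs care. Its counts per TPM, scaled to the library median, ranged from 0.485 to 0.724 over the 20 libraries (1.49-fold), against 1.07-fold for Mycn and 1.22-fold for Myc and Mycl. The lowest value was in −N in 2i/LIF, and in −N in FCS/LIF the 2 libraries gave Max at 67.92 and 86.31 TPM although their CPM were 94.9 and 87.7. With CPM in place of TPM, the −N difference of the ratio in FCS/LIF went from −0.325 to 0.029.

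Genes were ranked by how closely their log2 CPM followed each member over the 20 libraries, after the mean of each medium was subtracted, among the 11737 others averaging 100 counts or more. The points share libraries and states, so the values are descriptions only. For Mycn the closest were Tlk1, a kinase of chromatin assembly (r = 0.89, with 0.93 within FCS/LIF and 0.92 within 2i/LIF), Chd8, a chromatin remodeller (0.89, 0.96 and 0.96), and Cdca7, a cell division cycle associated gene (0.88, 0.88 and 0.89). For Mycl they were Sparc, a secreted matrix protein (0.93, 0.86 and 0.95), and the predicted genes Gm43549 (0.93, 0.89 and 0.96) and Gm48362 (0.93, 0.70 and 0.97). Sparc ran at 193 CPM with both factors present, 198 upon −E, 68.1 upon −N and 65.9 upon −E−N in 2i/LIF, the same split by cell line as Mycl.

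For Max the closest were Ddx10, an RNA helicase (0.88), Spn, which encodes a cell surface sialoglycoprotein (0.87), and Nsun2, an RNA methyltransferase (0.87). For Myc the correlations were weaker, led by Csnk2a2, a catalytic subunit of casein kinase 2 (0.71), Ankrd33b (0.69) and Tmem63a, an ion channel (0.69).

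The partners and rivals of Max were followed as a list of 9 genes, all tested. In FCS/LIF none was called by edgeR in −E or −N (5 and 2 at an unadjusted p under 0.05, 0 by DESeq2 in each), and in −E−N 2 fell. These were Mxi1, a Max-binding repressor, from 21.4 ± 1.65 to 11.8 ± 0.116 CPM (−0.87 ± 0.09), and Mlxipl, the glucose-responsive partner of Mlx, from 4.80 ± 0.282 to 2.89 ± 0.233 (−0.75 ± 0.19). The list's median was −0.44 beside 0 for all genes.

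In 2i/LIF none of the 9 was called by edgeR in −E (1 at an unadjusted p under 0.05 and 1 higher by DESeq2). Mlxipl fell in −N, from 13.1 ± 2.17 to 5.50 ± 0.855 CPM (−1.26 ± 0.24), and in −E−N (−1.18 ± 0.24). Also in −E−N, Mxd4 rose from 2.47 ± 0.720 to 9.05 ± 3.31 CPM (1.89 ± 0.27) and Mxd3 fell from 10.1 ± 0.668 to 5.59 ± 0.981 (−0.84 ± 0.15), both Max-binding repressors. Between media in +E+N, 2 were higher and 2 lower in 2i/LIF, with Mxd4 at −1.74, Mlxipl at 1.45 and Mlxip, the other partner of Mlx, at −1.13.

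Among 12 cofactors through which Myc acts on chromatin, none was called in FCS/LIF by edgeR in −E, −N or −E−N, with 3, 1 and 9 at an unadjusted p under 0.05 and 0 by DESeq2 each time. The list's median in −E−N was −0.20 beside 0 for all genes. In 2i/LIF none was called by edgeR in −E or −N (5 and 3 at an unadjusted p under 0.05, 0 by DESeq2), and 2 fell in −E−N. Wdr5, a subunit of histone H3 lysine methyltransferases, went from 342 ± 25.1 to 156 ± 14.8 CPM (−1.12 ± 0.10) and Zbtb17, the Miz1 protein through which Myc represses, from 39.6 ± 3.53 to 24.9 ± 1.93 (−0.66 ± 0.10). Both were higher in 2i/LIF than in FCS/LIF in +E+N (0.67 and 0.65), the only calls of that list between media.

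Genes that set the stability of Myc proteins made a list of 14. None was called by edgeR in −E or −N in either medium (1 to 5 at an unadjusted p under 0.05, 0 by DESeq2). In −E−N in FCS/LIF, Usp28, a deubiquitinase that stabilises Myc, fell from 165 ± 11.1 to 58.1 ± 5.91 CPM (−1.53 ± 0.09), and Pim1, a kinase downstream of LIF and Stat3, rose from 67.0 ± 7.11 to 110 ± 6.00 (0.70 ± 0.08). In 2i/LIF, Pim1 instead fell in −E−N, from 120 ± 7.96 to 35.6 ± 5.58 CPM (−1.73 ± 0.10), and the related kinase Pim3 fell by 0.65. In +E+N, 1 of the list was higher and 3 lower in 2i/LIF than in FCS/LIF, with Usp28 at −1.13, Pim1 at 0.84 and Huwe1, a ubiquitin ligase of Myc, at −0.78. For this list the medians in −E−N were −0.09 in FCS/LIF and −0.06 in 2i/LIF, beside 0 and 0.01 for all genes.

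Of 6 paralogues and Myc-named binders, 5 were tested in FCS/LIF and 4 in 2i/LIF, Mycs being at 0 or 1 count. None was called by edgeR in FCS/LIF in −E, −N or −E−N (1, 0 and 1 at an unadjusted p under 0.05, 0 by DESeq2), and in 2i/LIF the single call was Mycbp2, a large ubiquitin ligase, which rose in −E−N from 33.5 ± 2.26 to 53.2 ± 6.57 CPM (0.68 ± 0.11). In +E+N, 3 of 5 were lower in 2i/LIF. Pvt1, the long non-coding gene that follows Myc on chromosome 15, was at 4.39 ± 1.47 against 10.9 ± 2.68 CPM (−1.31 ± 0.27), in the same direction as Myc, Mycbp2 differed by −1.09, and Mycbpap was near 0 in 2i/LIF.

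Other bHLH-zipper factors that bind E-boxes numbered 8, with 7 tested in 2i/LIF. Mitf, a regulator of pigment and lysosome genes, fell in FCS/LIF from 9.57 ± 0.816 CPM to 4.28 ± 0.187 in −E (−1.18 ± 0.13) and 3.66 ± 0.0326 in −E−N (−1.40 ± 0.13), the single call of the list in each. In −E−N in 2i/LIF it fell from 34.4 ± 4.66 to 6.49 ± 1.21 (−2.39 ± 0.17), and Tfe3, its relative, rose by 0.59. None was called by edgeR in −N in FCS/LIF or in −E or −N in 2i/LIF (1, 3 and 3 at an unadjusted p under 0.05, 0 by DESeq2). Between media, 5 were higher and 2 lower in 2i/LIF, among them Mitf at 1.85 and Tfe3 at −1.08, while Tfec was at 0 in the 2i/LIF libraries of +E+N.

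Known Myc targets were taken in 3 lists. The first held 31 genes of the nucleolus and ribosome biogenesis. In FCS/LIF none was called by edgeR in −E or −N (13 and 2 at an unadjusted p under 0.05, 0 by DESeq2), and 1 fell in −E−N, Rrp9, a component of the U3 small nucleolar ribonucleoprotein (−0.66 ± 0.12, from 152 ± 19.6 to 98.0 ± 9.54 CPM). Their median in −E−N was −0.25, with 27 of 31 below 0, beside 0 for all genes. In 2i/LIF none was called by edgeR in −E, −N or −E−N (8, 3 and 6 at an unadjusted p under 0.05, 0 by DESeq2), with medians of 0.13, 0.08 and 0.10 beside 0.01, −0.00 and 0.01 for all genes.

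Between media in +E+N, where Myc and Mycn were lower in 2i/LIF, 3 of the 31 nucleolar genes were called lower and none higher. These were Utp20 (−0.83), Polr1b, a subunit of RNA polymerase I (−0.70), and Imp4 (−0.60). Among all genes tested, 17.5% were called lower and 17.2% higher. The median of the list was −0.34 with 27 of 31 below 0, beside 0.01 for all genes. Whether Myc or Mycn has a part in these differences was not tested.

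Of 24 targets in metabolism and growth in FCS/LIF, 3 fell in −E and 5 in −E−N, with none higher. Of all genes, 2.53% were called lower and 3.23% higher in −E, and 6.4% lower and 12.4% higher in −E−N. Mthfd2, a mitochondrial folate enzyme, went from 137 ± 26.0 CPM to 54.8 ± 1.54 in −E (−1.34 ± 0.11) and 50.4 ± 3.18 in −E−N (−1.46 ± 0.11), and Shmt2, which feeds the same pathway from serine, from 162 ± 6.17 to 83.4 ± 3.72 (−0.98 ± 0.07) and 69.5 ± 0.553 (−1.24 ± 0.07). Umps, of pyrimidine synthesis, changed by −0.61 in −E, and Shmt1, the cytosolic form of Shmt2, by −0.79 in −E−N. The list's median was −0.14 in −E and −0.31 in −E−N beside −0.00 and 0 for all genes, with 22 of 24 below 0 in −E−N.

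In 2i/LIF, Mthfd2 fell in −E−N from 138 ± 1.15 to 43.3 ± 7.77 CPM (−1.66 ± 0.18) and Shmt2 from 267 ± 23.9 to 161 ± 16.6 (−0.72 ± 0.11), whereas Ldha, lactate dehydrogenase A, rose (0.75 ± 0.19). No gene of this list was called by edgeR in −N in FCS/LIF or in −E or −N in 2i/LIF (2, 5 and 6 at an unadjusted p under 0.05), and DESeq2 called 1 in −E in 2i/LIF. Mthfd2 and Shmt2 fell in −E−N in both media, while Mycn changed by −0.68 in FCS/LIF and by 0.68 in 2i/LIF. The latter was not called in the edgeR fit of the 2i/LIF libraries. It was called by DESeq2, and by edgeR with the replicate block or with all 20 libraries in 1 fit. Both genes also fell in −E in FCS/LIF, where the change of Mycn was 0.08 and not called. Whether Mycn has a part in these falls was not tested. In +E+N, 5 were lower and 1 higher in 2i/LIF, with Ldha at −1.27, Odc1, the first enzyme of polyamine synthesis, at −0.98 and Umps at −0.81.

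**Figure D4:**
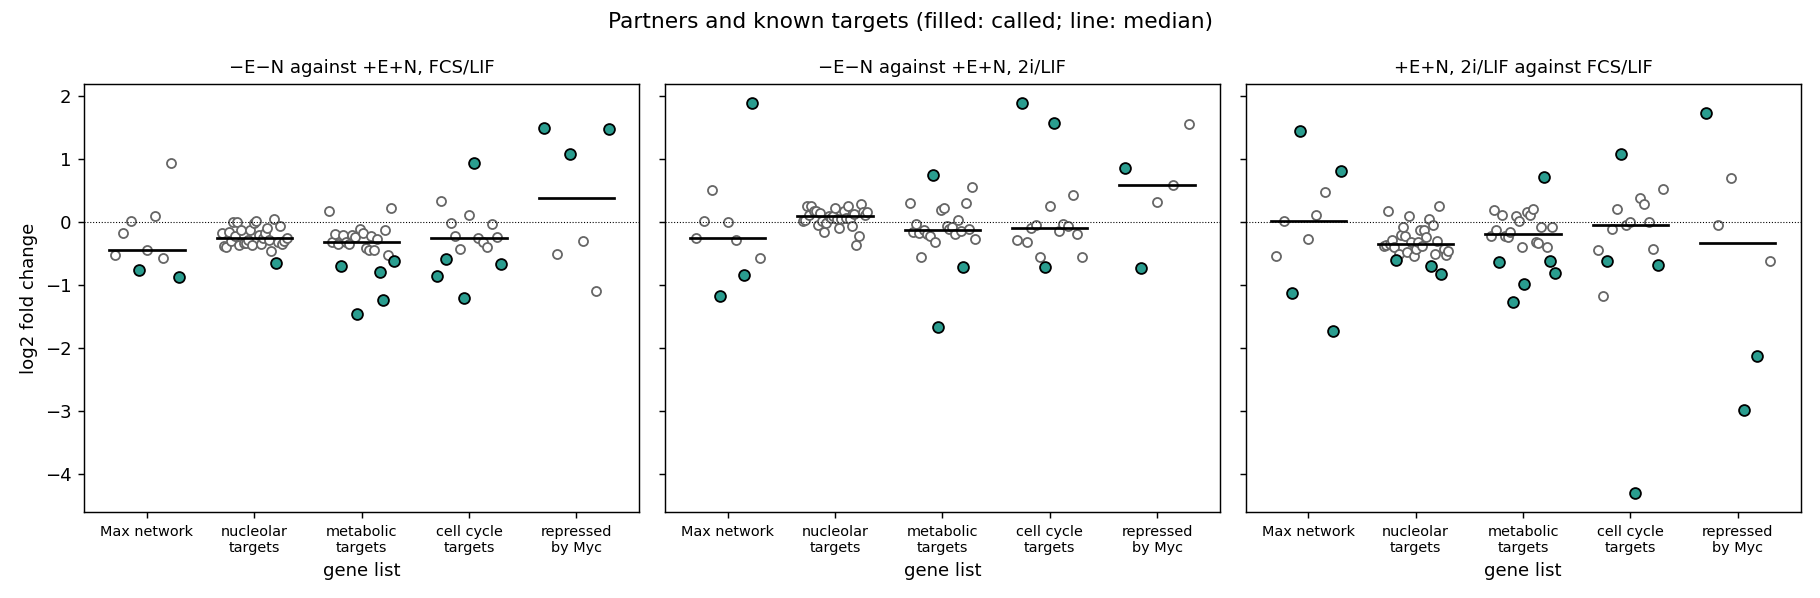
Log2 fold changes (edgeR) of each gene in the lists of Max partners, Myc targets and genes known as repressed by Myc, for −E−N against +E+N in both media and for 2i/LIF against FCS/LIF in +E+N, with filled points for called genes and a line at each list's median. The nucleolar list has its median at −0.25 in FCS/LIF and 0.10 in 2i/LIF for −E−N, and at −0.34 between media.

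Of 15 targets in the cell cycle, 1 rose and 1 fell in −E in FCS/LIF, and 1 rose and 4 fell in −E−N. E2f2, a driver of S phase genes, fell from 16.0 ± 2.26 CPM to 7.30 ± 0.364 (−1.15 ± 0.12) and 7.01 ± 0.0881 (−1.21 ± 0.12). Ccnd2, encoding cyclin D2, rose in −E (1.05 ± 0.16), Ccnd1, encoding cyclin D1, fell in −E−N (−0.85 ± 0.06), and Id2, an inhibitor of bHLH factors, rose in −E−N (0.94 ± 0.07). In 2i/LIF, Ccnd2 rose from 2.37 ± 0.719 CPM to 15.2 ± 0.694 in −E (2.69 ± 0.40), the single call of this list there, and to 8.70 ± 1.19 in −E−N (1.89 ± 0.39), where Id2 rose (1.57 ± 0.38, from 0.985 to 2.92 CPM) and E2f2 fell (−0.71 ± 0.17).

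None of the 15 was called by edgeR in −N in FCS/LIF (3 at an unadjusted p under 0.05, 0 by DESeq2) or in 2i/LIF (5 at an unadjusted p under 0.05, 1 by DESeq2). Between media, Id2 was lower in 2i/LIF by a log2 change of −4.30, E2f1 was higher at 1.08 and Tert, the telomerase catalytic subunit, was lower at −0.68, among 1 called higher and 3 lower.

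Genes known as repressed by Myc numbered 6, with 5 tested in 2i/LIF. Cdkn1a, the p21 inhibitor of cyclin-dependent kinases, rose in FCS/LIF from 45.7 ± 13.5 CPM to 87.6 ± 7.63 in −E (0.92 ± 0.18) and 131 ± 15.3 in −E−N (1.50 ± 0.18), and in 2i/LIF from 152 ± 19.1 to 274 ± 19.7 in −E−N (0.86 ± 0.14). Ndrg1, a stress-responsive gene (1.48 ± 0.21), and Cdkn2b, the p15 inhibitor (1.08 ± 0.20), also rose in −E−N in FCS/LIF. Cdkn1b, the p27 inhibitor, fell in −E in FCS/LIF (−0.63 ± 0.09) and in −E−N in 2i/LIF (−0.73 ± 0.14). None was called by edgeR in −N in FCS/LIF or in −E or −N in 2i/LIF (2, 2 and 0 at an unadjusted p under 0.05, 0 by DESeq2). Between media, Gadd45a, a DNA damage gene (−2.98), and Gata6, an endoderm factor (−2.13), were lower and Cdkn1a (1.73) higher in 2i/LIF.

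Of the target lists, 7 of 26 nucleolar genes with a promoter window, 7 of 23 in metabolism, 1 of 12 in the cell cycle and 0 of 4 repressed genes held CACGTG, and 3 of 9 in the Max network. Over all windows the share was 7.15%, and the lists were not tested against it.

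Markers of ESCs and of other cell types moved with loss of both factors, beside the changes of Mycn and Mycl. All 7 ESC markers were detected in every group. Their summed level was 4010–4324 CPM in +E+N and 1934–2118 in −E−N in FCS/LIF, where 7 of 7 fell, and 5432–5521 and 2207–3023 in 2i/LIF, where 6 of 7 fell. The 4 trophectoderm markers summed to 48.4–60.2 and 183–254 CPM in FCS/LIF, with 4 of 4 higher in −E−N, and to 11.5–14.5 and 63.3–89.0 in 2i/LIF, with 2 higher and 1 lower of 3 tested. The 4 primed epiblast markers summed to 694–722 and 857–931 CPM in FCS/LIF (2 higher, 1 lower of 4) and to 92.2–125 and 217–266 in 2i/LIF (1 higher, 1 lower of 3). Single genes made up most of some sums. In −E−N, Dnmt3b held 771 of a mean 894 CPM for primed epiblast in FCS/LIF and 243 of 244 in 2i/LIF. Krt7 held 204 of a mean 219 CPM for trophectoderm in FCS/LIF. Against these sums, Otx2 went from 38.7 to 11.9 CPM in FCS/LIF and from 1.56 to 0.0348 in 2i/LIF, and Eomes from 9.75 to 2.51 in 2i/LIF.

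Fibroblast markers summed to 6.43–8.05 CPM in +E+N and 9.82–9.91 in −E−N in FCS/LIF (3 of 4 higher), and to at most 4.18 in 2i/LIF, with 1 higher and 1 lower of 3 in −E−N. Primitive endoderm markers summed to 9.15–13.4 and 7.86–8.21 CPM in FCS/LIF, where none of 4 was called by edgeR (1 at an unadjusted p under 0.05, 1 lower by DESeq2), and to at most 4.42 in 2i/LIF, with 1 of 2 tested lower. No list had a marker at 0 in all libraries of a group. In −N in 2i/LIF, where Mycl fell, 0 of 7 ESC markers were called by edgeR (3 at an unadjusted p under 0.05, 0 by DESeq2), while 1 of 3 trophectoderm and 1 of 3 primed epiblast markers were higher. Between media in +E+N, 4 of 4 primed epiblast and 4 of 4 primitive endoderm markers were lower in 2i/LIF. Whether a shift in the cells present has a part in the changes of the Myc family genes was not tested.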

How the data were processed

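RNA-seq of 20 mouse ESC libraries was analysed, 8 in FCS/LIF and 12 in 2i/LIF. The authors deposited, per library, RSEM expected counts and TPM values per gene. The submitters' processing notes name STAR, RSEM, Bowtie2 and mm10 without versions. Of 54238 rows, 92 were ERCC spike-ins, all at 0, and were left out, and 54079 identifiers matched GENCODE vM21. No column lacked a sample.

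The deposited expected counts were rounded to whole numbers, and their sums per library set the depth given with the results. Genes with at least 20 counts in every library of at least 1 group were kept (15636 in FCS/LIF, 14355 in 2i/LIF, 16147 with all libraries). States were compared within a medium by edgeR 4.0.16 (R 4.3.3) with TMM scaling, glmQLFit and glmQLFTest on all libraries of that medium. The 2 media were compared in a fit of all 20 libraries. P-values were adjusted over all genes tested (Benjamini-Hochberg). Called meant adjusted p below 0.01 and a fold above 1.5, or the adjusted p alone for interactions and differences of responses. DESeq2 1.42.0 and limma 3.58.1 on log2 of the deposited TPM plus 1 or 0.1 were alternatives, with other filters, scalings, a looser limit, the replicate number as a block and each library left out in turn. TPM shares and ratios were compared by exact permutation tests (scipy 1.17.1), two-sided. Scripts were tested on simulated data. Likeness was Pearson's r of log2 CPM (prior count 2).

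Always named were the members, Esrrb and Nr5a2, then up to 3 called genes of largest change for each list and comparison with +E+N, and the 3 genes most like each member. The lists follow the roles named with the results, and together with the members were chosen with earlier results of these data known. No replicate pair held identical values. Replicate numbers in the labels were checked as pairs. In 2i/LIF, deviations of same-numbered libraries from their group means correlated above 0.1 in 16 of 18 pairs (−0.0119 to 0.460), and in all 3 pairs for 4 of 6 pairs of states, those of +E+N with −E−N and of −E with −E−N excepted.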

Additional observations from a re-analysis of the deposited data

Results flagged for a closer look

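Of the responses of the members, 3 differed between the media by a test of the difference itself (edgeR, all 20 libraries, FCS/LIF less 2i/LIF, adjusted p below 0.01). For Mycl in −N the difference was 1.46 ± 0.19 on the log2 scale (SE, adjusted p = 0.0005), from a change of 0.06 in FCS/LIF and −1.38 in 2i/LIF. For Mycl in −E−N it was 1.63 ± 0.19 (adjusted p = 1.52e-05), from 0.62 in FCS/LIF, higher in 2 of 2 libraries than in any of +E+N, and −0.97 in 2i/LIF, lower in 3 of 3. For Mycn in −E−N the fit of all 20 libraries gave −0.66 in FCS/LIF (adjusted p = 0.0146, not called). It gave 0.67 in 2i/LIF (adjusted p = 0.00311, called). In the fits by medium these changes were −0.68 (called) and 0.68 (not called). The difference of responses for Mycn in −E−N was −1.33 ± 0.25 (adjusted p = 0.00115). These calls remained in 20 of 20 fits with a library left out, in which the values ran from 1.38 to 1.56, from 1.50 to 1.73 and from −1.54 to −1.20. Medium and the set of cultures cannot be told apart.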

How the results depend on the processing

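Mycn was the member whose calls depended most on the processing. Its drop in −E−N in FCS/LIF missed the limits by limma on log2(TPM + 1) or log2(TPM + 0.1) (−0.52 in both) and with all 20 libraries in 1 fit (−0.66). Its changes in 2i/LIF passed in −N and −E−N by DESeq2 (0.74 and 0.68), with genes of at least 1 count kept (0.75 and 0.68), with all 20 libraries in 1 fit (0.74 and 0.67) and at an adjusted p under 0.05 with no fold limit (0.74 and 0.68). That looser limit also took in Max in −E−N in FCS/LIF (−0.22) and in −E in 2i/LIF (0.31). In FCS/LIF, with 2 replicates, same-numbered libraries correlated in their deviations at 0.0168 to 0.312, too few pairs to say that the numbers pair them. With the replicate block, Mycn in −N and −E−N in 2i/LIF passed (0.73 and 0.66), as did its interaction in FCS/LIF (−0.74), no other call of a member changed, and calls over all genes went from 27 to 305 in −N in FCS/LIF, from 901 to 1296 in −E in FCS/LIF, from 223 to 596 in −E in 2i/LIF and from 524 to 1115 in −N in 2i/LIF. The block took the interactions from 5 to 40 in FCS/LIF and from 44 to 324 in 2i/LIF. Over the alternatives with all libraries, calls over all genes in FCS/LIF ran from 445 to 3022 for −E (901 as reported), from 0 to 548 for −N (27), up to 7308 for −E−N (2934), from 920 to 5152 for −E−N against −N (1573), from 437 to 3251 against −E (790) and from 0 to 242 for the interaction (5). In 2i/LIF they ran from 136 to 880 for −E (223), from 309 to 1504 for −N (524), up to 5869 for −E−N (2672), up to 2795 against −N (970), up to 4577 against −E (1883) and from 7 to 324 for the interaction (44). Calls for the difference of responses ran up to 706 for −E (171) and from 70 to 809 for −N (120).

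Values near 0 changed sign. By limma on log2(TPM + 1) and log2(TPM + 0.1), Max was at 0.043 and 0.043 in −E and at 0.25 and 0.25 in −N in FCS/LIF, Mycn was at 0.052 and 0.052 in −N in FCS/LIF, and Max was at −0.049 and −0.049 in −E−N in 2i/LIF. With all 20 libraries in 1 fit, Mycn and Max in −N in FCS/LIF were at 0.000082 and 0.012. The Mycn interaction in 2i/LIF was −0.0012 by DESeq2, −0.0013 with its size factors, −0.0026 at 1 count, −0.011 with filterByExpr, −0.016 with the replicate block and −0.013 with all libraries. With CPM in place of TPM, the difference of the ratio to Max from +E+N in FCS/LIF was 0.509 upon −E, 0.029 upon −N and −0.67 upon −E−N, whereas in 2i/LIF it was −0.123 upon −E and 0.242 upon −N. Without Mycl the ratio differed by 0.287 in −E in FCS/LIF, and the Mycn share by 1.37 in −N and 2.22 in −E−N in 2i/LIF.

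With each library left out in turn, changes in FCS/LIF ran from −0.19 to 0.41 for Myc and 0.75 to 0.89 for Mycl in −E, from −0.093 to 0.51 for Myc, −0.00090 to 0.14 for Mycl and −0.062 to 0.045 for Max in −N, and from 0.17 to 0.77 for Myc and 0.55 to 0.69 for Mycl in −E−N. In 2i/LIF they ran from −0.15 to 0.044 for Mycn in −E, from 0.62 to 0.87 for Mycn and −0.0048 to 0.066 for Max in −N, and from 0.55 to 0.89 for Mycn and −0.028 to 0.082 for Max in −E−N. Between −E−N and −N they ran from −0.19 to 0.16 for Mycn and −0.055 to 0.056 for Max. The interaction ran from −0.15 to 0.45 for Myc in FCS/LIF and from −0.13 to 0.21 for Mycn in 2i/LIF, and the difference of responses from −0.083 to 0.035 for Max in −N and from −0.12 to 0.49 for Myc in −E−N. An arm left with 1 library in FCS/LIF is assumed to vary like the other groups. The cause of these shifts was not tested. The called differences of Myc, Mycn and Mycl between media and of Mycl in −N and −E−N in 2i/LIF were called under each alternative run. Myc in 2i/LIF, at 86 to 221 counts per library, is the value that depth limits most.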
